A study of Homo sapiens with 35 samples.

Results

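H1 human embryonic stem cells, an established pluripotent line, were compared at 24 h and at 6 h of culture with the compound named BRD and without CHIR99021 (CHIR), an inhibitor of the kinase GSK3 that switches on Wnt signalling. The members were the bulk RNA-seq libraries whose treatment label names BRD alone, 2 at 24 h and 2 at 6 h, which are 4 of the 35 samples of the series. The series set out to make definitive endoderm, the source of the gut tube and its organs, with Activin A or with small molecules in its place. It holds 32 bulk and 3 single-cell samples.

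The 24 h group was H1 cells kept for 24 h with BRD, collected without sorting. The 6 h group was the same in all labels except for its time of 6 h. Neither label names Activin A or CHIR. Per the labels, all cells were seeded on Geltrex in StemFlex medium with the ROCK inhibitor Y-27632, and were moved at the start of treatment to RPMI with little serum and with insulin, transferrin and selenium (ITS). The labels used here give BRD by code name alone and state no dose for it. All 4 libraries came from 1 cell line, and the labels do not say whether the 2 libraries of a time were separate cultures, so p-values measure the spread between these libraries, which may be technical. Untreated cells at 24 h were not analysed here, and an action of BRD and the time spent in this medium cannot be told apart.

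Human embryonic stem cells in standard culture resemble the epiblast just before gastrulation, a state called primed pluripotency. The transcription factors POU5F1, SOX2 and NANOG hold it, under FGF signals that act through the kinase ERK and under Activin or Nodal signals that act through SMAD proteins. When Wnt and Nodal signals coincide, such cells enter the primitive streak and SOX2 is lost, and when both are withheld they tend towards ectoderm, where SOX2 stays on. Insulin, through the kinase AKT, keeps FOXO transcription factors out of the nucleus.

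The 24 h libraries held 6.75 and 49.5 M (mega) counts and the 6 h libraries 11.8 and 9.65 M, so the 24 h pair was far less even in depth. Both times carry the library series number 46. In the 24 h pair 42 genes had 0 counts in 1 library and at least 50 in the other, against 10 genes in the 6 h pair. MTRNR2L12, a nuclear gene that resembles the large ribosomal RNA of mitochondria, took 9.06% and 10.8% of counts at 24 h and 8.19% and 7.78% at 6 h. Of 13709 genes tested with edgeR's quasi-likelihood test, 3836 (28.0%) passed a Benjamini-Hochberg adjusted p of 0.05. Of these, 1855 (13.5%) were higher and 1981 (14.5%) lower at 24 h, and 1030 (7.51%) changed at least 2-fold, 719 of them upwards and 311 downwards. In 9217 genes (67.2%) the levels of the 2 times did not overlap. List members named below were picked for a small p, so their separation of the times adds no further support. Without 6 h replicate 1 the calls numbered 1168, and without 6 h replicate 2 they numbered 1175. The median log2 change over all tested genes was 0.00159.

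The cells still carried the transcripts of pluripotent cells at 24 h, with SOX2 and FGF2 higher, POU5F1 not detectably changed, and NANOG and DNMT3B lower than at 6 h. Levels are in CPM, counts scaled to the effective library size, and are not comparable between genes of different length. SOX2, on chromosome 3 (181711924 to 181714436, GRCh38, inside the long RNA gene SOX2-OT), had 367 and 414 CPM at 24 h, against 240 and 237 CPM at 6 h. Both 24 h libraries lay above both 6 h libraries, a log2 change of 0.71 ± 0.11 (SE, adjusted p = 0.00306), but the adjusted p was 0.0749 without 6 h replicate 1 and 0.0794 without 6 h replicate 2. FGF2, the growth factor that maintains these cells, had 269 and 283 CPM at 24 h and 139 and 145 CPM at 6 h. Its log2 change of 0.96 ± 0.10 (adjusted p = 0.000622) separated the times in all 4 libraries. FGF2 lies on chromosome 4 (122826708 to 122898236) and overlaps NUDT6 on the other strand.

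POU5F1, which encodes the factor OCT4 and lies on chromosome 6 (31164337 to 31180731), had 511 and 472 CPM at 24 h, against 433 and 474 CPM at 6 h. The times overlapped, and the log2 change of 0.12 had a 95% interval of -0.15 to 0.38 (adjusted p = 0.485). NANOG, the third core factor, on chromosome 12 (7787794 to 7799141), had 76.8 and 79.9 CPM at 24 h and 191 and 173 CPM at 6 h. Both 24 h libraries were below both 6 h libraries, with a log2 change of -1.22 ± 0.11 (SE, adjusted p = 0.0003). DNMT3B, the DNA methyltransferase that is abundant in primed cells, had 435 and 475 CPM at 24 h, against 837 and 784 CPM at 6 h. It fell by 0.83 ± 0.12 on the log2 scale (adjusted p = 0.0019), with an adjusted p of 0.0538 without 6 h replicate 1. OTX2, a head and anterior epiblast factor, had 107 and 75.2 CPM at 24 h and 26.6 and 30.2 CPM at 6 h. The 24 h libraries differed from each other but both exceeded the 6 h pair, a log2 change of 1.66 ± 0.18 (adjusted p = 0.000559). PRDM14, a repressor that guards pluripotency, had 30.5 and 29.5 CPM at 24 h against 35 and 31.1 CPM at 6 h, and did not pass (log2 change -0.15, 95% interval -0.42 to 0.13, adjusted p = 0.4).

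**Figure D1:**
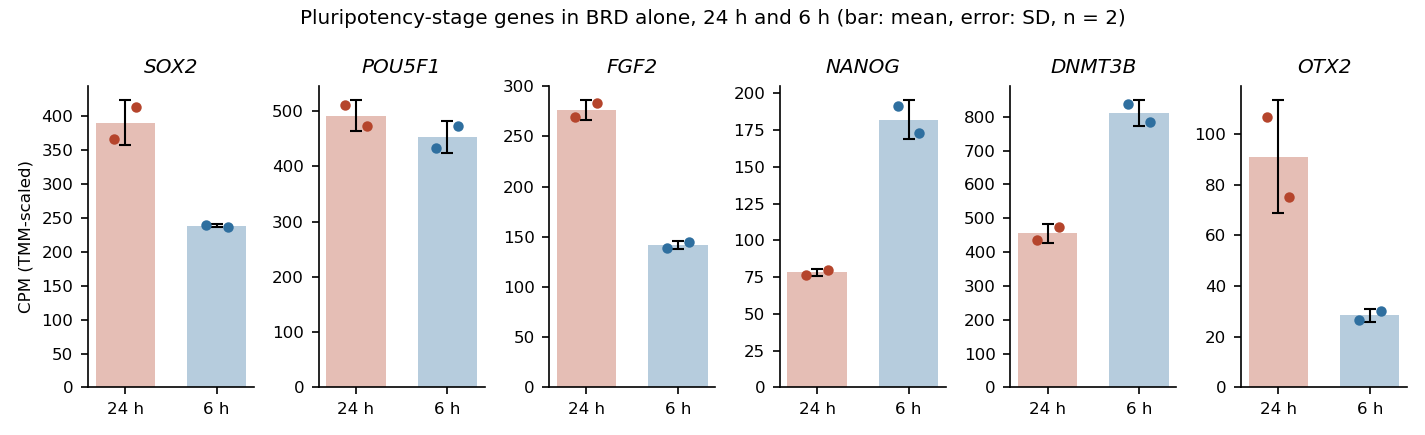
Levels of 6 genes of the pluripotent state in cells kept with BRD alone, in TMM-scaled CPM. Points are single libraries, bars are means and error bars are SD (n = 2), with 24 h left of 6 h in each panel. SOX2, FGF2 and OTX2 stand higher at 24 h, NANOG and DNMT3B lower, and POU5F1 overlaps between the times.

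Beyond these genes, the primed pluripotency list split both ways. Of its 26 tested members, 4 rose, 4 fell and 18 did not pass, with a median log2 change of -0.18. Of all tested genes 13.5% rose and 14.5% fell, so these shares lie near the background. Their summed level was 14418 and 14103 CPM at 24 h, against 17007 and 16933 CPM at 6 h. THY1, the surface antigen CD90, had 48.6 and 63.6 CPM at 24 h and 159 and 150 CPM at 6 h (log2 change -1.44 ± 0.14, adjusted p = 0.000417). Both 24 h libraries lay below both 6 h libraries. LIN28A and SALL4, chosen after their values were seen, had log2 changes of -0.07 and 0.01 with adjusted p of 0.717 and 0.943. L1TD1 and ZFP42, chosen in the same way, fell. L1TD1 had 806 and 1076 CPM at 24 h and 2089 and 1933 CPM at 6 h (log2 change -1.09, adjusted p = 0.00203). The log2 change of ZFP42 was -0.46 (adjusted p = 0.0286).

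The label of these samples calls their source definitive endoderm cells derived from stem cells, and the endoderm markers did not bear this out. SOX17, the defining endoderm factor, had 1 and 0 counts at 24 h and 0 and 2 counts at 6 h. FOXA2, another endoderm factor, had 0 and 0 counts at 24 h and 2 and 2 at 6 h. TBXT, the mesoderm and streak factor brachyury, had 0 and 1 counts at both times. EOMES, the T-box factor that directs endoderm, had 0 and 4 counts at 24 h against 1 and 4 at 6 h, and the organizer factor GSC had 0 and 8 counts against 0 and 1. CXCR4, a surface receptor used to sort endoderm, had 11 and 46 counts at 24 h and 5 and 3 at 6 h. None of these 6 genes passed the filter on low counts, so none was tested. A count of 0 allows up to 3 counts, which is 0.435 and 0.0597 CPM in the 24 h libraries and 0.258 and 0.318 CPM in the 6 h libraries.

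Among the other cell types that an unsorted culture could hold, endoderm and streak had many list members that did not pass the filter on low counts. Of 20 neuroectoderm genes analysed 14 passed it. In bulk RNA, fewer cells of a type and less RNA per cell cannot be told apart. Of 17 endoderm genes analysed 4 were tested, 1 rose and 2 fell, and of 16 streak genes 7 were tested, 2 rose and 2 fell. Over all tested genes 13.5% rose and 14.5% fell, and these counts are small. The summed streak level was 27.4 and 28.9 CPM at 24 h, against 36.5 and 38.2 CPM at 6 h, and the summed endoderm level 65.8 and 69.4 CPM against 107 and 102 CPM. The endoderm sum holds SHISA2 and CER1, which fell, and KIT, a receptor also found on stem cells, which had 46.3 and 50.8 CPM at 24 h and 35.1 and 33.1 CPM at 6 h. KIT passed with an adjusted p of 0.0125, which was 0.108 and 0.162 without 6 h replicates 1 and 2. The streak genes that rose, LHX1 and TBX6, stayed at or below 2.47 CPM in every library. Without 6 h replicates 1 and 2 their adjusted p was 0.228 and 0.133 for LHX1 and 0.174 and 0.141 for TBX6. MIXL1, a streak homeobox gene, had 1.45 and 0.976 CPM at 24 h and 0.776 and 0.636 CPM at 6 h (log2 change 0.63, 95% interval -0.48 to 1.73, adjusted p = 0.359).

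The anterior neural plate and neuroectoderm list had 14 tested members, of which 3 rose, 4 fell and 7 did not pass (median log2 change -0.29). The shares over all genes were 13.5% higher and 14.5% lower. PAX6 and SOX1, which define neuroectoderm, were not analysed here. IRX3, a homeobox gene of the neural plate, had 6.53 and 6.26 CPM at 24 h and 1.98 and 1.38 CPM at 6 h (log2 change 1.90 ± 0.28, adjusted p = 0.00219). NES, an intermediate filament gene of neural progenitors, had 89.3 and 140 CPM at 24 h and 269 and 233 CPM at 6 h (log2 change -1.11 ± 0.19, adjusted p = 0.00396). CDH2, the neural and mesodermal cadherin, fell by 0.75 ± 0.11 on the log2 scale, and POU3F1, an early neural POU factor, fell by 1.26 ± 0.19. IRX3 and POU3F1 did not pass in a fit over all 30 bulk libraries, with adjusted p of 0.0867 and 0.0783. The list's summed level was 373 and 476 CPM at 24 h, against 631 and 578 CPM at 6 h.

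Among amnion and trophectoderm genes 3 of 6 tested rose and 2 fell, against 13.5% and 14.5% over all genes. KRT7, a simple epithelial keratin, had 8.57 and 8.25 CPM at 24 h, against 2.07 and 2.12 CPM at 6 h (log2 change 2.00 ± 0.24, adjusted p = 0.000896, but 0.159 in a fit over all 30 libraries). The more abundant KRT18 had 156 and 155 CPM at 24 h and 266 and 284 CPM at 6 h (log2 change -0.82 ± 0.10, adjusted p = 0.00118). The neural crest list had 4 tested members, of which only TFAP2C passed, at 8.57 and 7.99 CPM against 2.67 and 3.71 CPM. Its log2 change of 1.37 ± 0.24 (adjusted p = 0.00451) had an adjusted p of 0.0507 without 6 h replicate 1. Of 6 tested early mesoderm genes 2 rose, BMP4 and TBX6, and neither passed without 6 h replicate 1 or 2 (adjusted p 0.0564 and 0.0633 for BMP4).

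The Nodal and Activin targets that changed mostly fell. Of 19 tested members 9 fell, 2 rose and 8 did not pass, and the median log2 change was -0.83. The list's summed level did not fall with them, at 2461 and 2220 CPM at 24 h against 2120 and 2232 CPM at 6 h. That sum holds TDGF1, chosen after its values were seen, which did not pass. TDGF1 had 1443 and 1209 CPM at 24 h and 967 and 1053 CPM at 6 h. Over all tested genes 14.5% fell and 13.5% rose. LEFTY1, a secreted Nodal antagonist that Nodal itself induces, had 0 and 0.319 CPM at 24 h, against 5.09 and 4.99 CPM at 6 h. LEFTY2, its neighbour and close copy, had 0.290 and 0.239 CPM against 2.85 and 3.08 CPM, and reads of the copies may be split between them. The ligand NODAL had 0.871 and 0.379 CPM at 24 h and 3.97 and 4.35 CPM at 6 h. In all of these the 24 h libraries lay below the 6 h libraries, with log2 changes of -4.21 ± 0.49 for LEFTY1, -3.54 ± 0.45 for LEFTY2 and -3.12 ± 0.43 for NODAL (adjusted p 0.000792, 0.00117 and 0.00171). The LEFTY1 change was -8.55 without 24 h replicate 2, where the remaining 24 h library had 0 counts. CER1, a secreted antagonist of Nodal, BMP and Wnt, had 0.581 and 0.139 CPM at 24 h and 4.22 and 6.05 CPM at 6 h (log2 change -4.58 ± 0.55). SMAD7, an inhibitor induced by the pathway, had 6.10 and 8.63 CPM against 21.3 and 20.4 CPM (log2 change -1.41 ± 0.18, adjusted p = 0.00114). The members that rose, FST and SMAD6, were chosen after their values were seen and bind or inhibit TGF-beta family signals, with log2 changes of 0.87 ± 0.21 and 1.4 ± 0.41. With 6 h replicates 1 and 2 left out 7 and 8 members fell, and none rose.

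Most FGF and ERK targets fell. Of 20 tested members 14 fell, 3 rose and 3 did not pass, with a median log2 change of -1.03. The shares over all genes were 14.5% lower and 13.5% higher. Their summed level was 757 and 846 CPM at 24 h, against 1830 and 1784 CPM at 6 h. DUSP6, the phosphatase that turns ERK off and is induced by it, had 12.9 and 18.3 CPM at 24 h and 167 and 154 CPM at 6 h. Every 24 h value was far below every 6 h value, a log2 change of -3.29 ± 0.16 (adjusted p = 4.51e-05). SPRY4, a feedback inhibitor of receptor tyrosine kinases, had 30.9 and 41.1 CPM at 24 h against 289 and 270 CPM at 6 h (log2 change -2.93 ± 0.15, adjusted p = 4.82e-05). IL17RD, the FGF antagonist SEF, had 47.8 and 59.3 CPM against 180 and 160 CPM (log2 change -1.65 ± 0.13, adjusted p = 0.000237). ETV4, an ETS factor downstream of FGF, fell by 1.32 ± 0.11 on the log2 scale. The nuclear phosphatase DUSP5 fell by 2.45 ± 0.21.

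The 3 members that rose were immediate early genes or related to them. EGR1, a zinc finger factor that serum response factor and ERK induce within minutes, had 10.0 and 13.8 CPM at 24 h and 1.98 and 1.80 CPM at 6 h (log2 change 2.69 ± 0.26, adjusted p = 0.000431). FOSL1 and PHLDA1, chosen after their values were seen, had log2 changes of 1.81 ± 0.48 and 0.97 ± 0.11. So targets on the same list moved in opposite directions. Without 6 h replicate 1, 11 members fell, and without 6 h replicate 2, 12 fell.

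The FGF ligands and receptors did not follow the targets. Of 8 tested, 3 rose and 1 fell, against 13.5% and 14.5% over all genes. Beside FGF2, the receptor FGFR2 had 137 and 161 CPM at 24 h and 88.9 and 87.1 CPM at 6 h (log2 change 0.76 ± 0.11, adjusted p = 0.00234). FGFR3 had 10.0 and 16.5 CPM at 24 h against 4.48 and 5.62 CPM at 6 h (log2 change 1.48 ± 0.26, adjusted p = 0.00465). The ligand FGF19 had 1.89 and 1.29 CPM against 4.91 and 5.20 CPM (log2 change -1.80 ± 0.31, adjusted p = 0.00431). All 4 genes separated the times, as did 67.2% of all tested genes.

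MYC, a transcription factor of cell growth and a target of ERK and Wnt, had 21.9 and 26.1 CPM at 24 h, against 71.7 and 72.0 CPM at 6 h (log2 change -1.56 ± 0.12, adjusted p = 0.000237). CCND1, the cyclin that carries growth signals into the cell cycle, had 228 and 261 CPM at 24 h and 535 CPM in both 6 h libraries (log2 change -1.13 ± 0.12, adjusted p = 0.000559). Of the 11 tested members of the MYC family and D cyclins, 5 fell and 2 rose, against 14.5% and 13.5% over all genes. CCND2 and MYCN were among those that fell, by 0.72 ± 0.14 and 0.60 ± 0.11, and each had an adjusted p between 0.0629 and 0.0889 when a 6 h library was left out. MYCL rose, at 19.0 and 19.1 CPM against 12.4 and 9.86 CPM, with an adjusted p of 0.00851 that was 0.0975 without 6 h replicate 2.

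Wnt and BMP targets gave no single direction. Of 9 tested Wnt targets 2 rose and 1, CCND1, fell, against 13.5% and 14.5% over all genes. AXIN2, a Wnt feedback gene, had 22.6 and 30.5 CPM at 24 h, against 20.1 and 19.3 CPM at 6 h (log2 change 0.47 ± 0.16, 95% interval 0.11 to 0.83, adjusted p = 0.0572). It passed without 24 h replicate 1, with an adjusted p of 0.000966. SP5, another direct Wnt target, had 0 and 2 counts at 24 h and 0 counts in both 6 h libraries. NKD1, a Wnt antagonist, had 13.1 and 17.3 CPM at 24 h and 6.64 and 5.09 CPM at 6 h (log2 change 1.41 ± 0.21, adjusted p = 0.00231). Of 9 tested BMP targets 4 rose and 3 fell. ID1 and ID4, inhibitors of helix-loop-helix factors that BMP induces, rose by 2.00 ± 0.14 and 2.03 ± 0.15, with ID1 at 76.4 and 63.6 CPM against 17.3 CPM in both 6 h libraries. ID3, of the same family, had 12.5 and 9.94 CPM at 24 h and 19.5 and 27.4 CPM at 6 h (log2 change -1.11 ± 0.20, adjusted p = 0.00464).

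**Figure D2:**
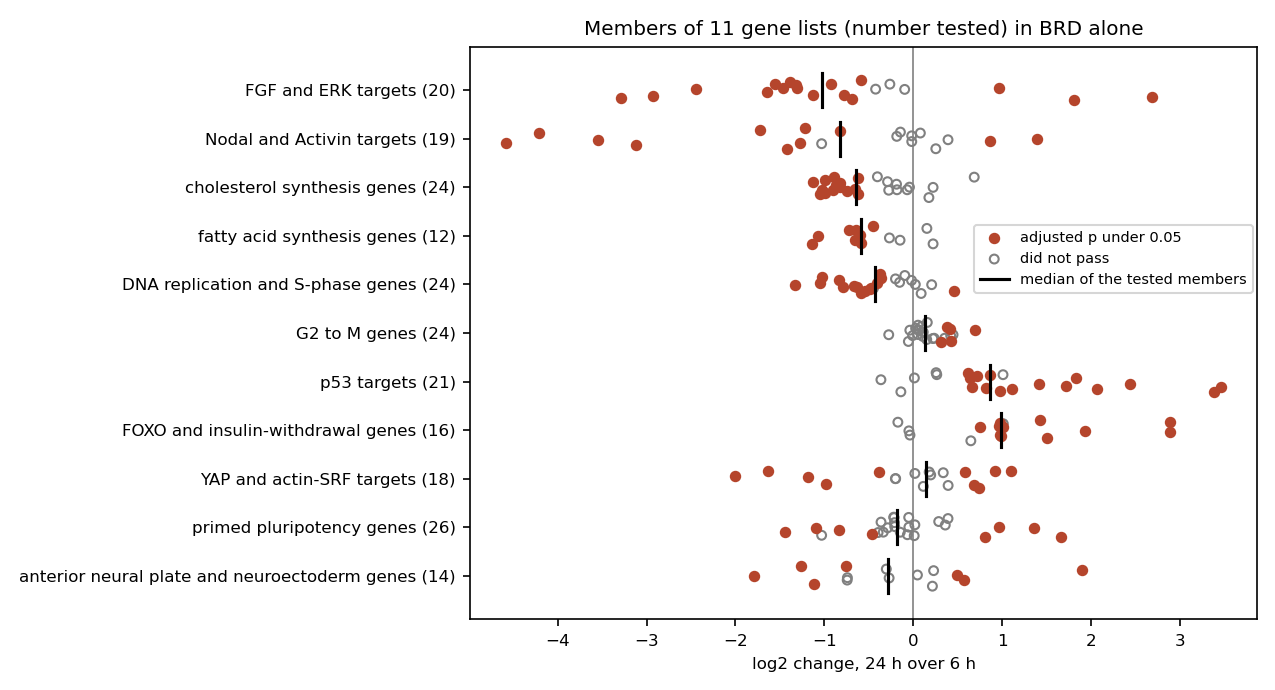
Log2 change (24 h over 6 h) of the tested members of 11 gene lists in cells kept with BRD alone. Each point is a gene, filled where its adjusted p was under 0.05, and the black bar is the list's median. FGF and ERK targets and lipid synthesis genes lie mainly to the left, and p53 targets and FOXO genes to the right.

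Most genes linked to FOXO factors and to insulin withdrawal rose. Of 16 tested members 11 rose, none fell and 5 did not pass, with a median log2 change of 0.98. Over all tested genes 13.5% rose and 14.5% fell. The summed level was 960 and 937 CPM at 24 h, against 517 and 480 CPM at 6 h. TXNIP, an arrestin that limits glucose uptake, lies on chromosome 1 (145992435 to 145996600) and had 30.1 and 34.8 CPM at 24 h, against 4.48 and 4.35 CPM at 6 h. Its log2 change was 2.89 ± 0.16 (adjusted p = 4.82e-05). SESN3, a stress-induced brake on the growth kinase mTORC1, had 319 and 265 CPM at 24 h and 78.1 and 74.7 CPM at 6 h (log2 change 1.93 ± 0.13, adjusted p = 9.18e-05). KLHL24, an adaptor of ubiquitin ligases, had 109 and 84.0 CPM against 31.8 and 35.4 CPM (log2 change 1.51 ± 0.15, adjusted p = 0.000479). BCL6, a repressor known from B cells, rose by 2.89 ± 0.22, and CITED2, a co-regulator bound by CBP and p300, by 0.98 ± 0.11. For each of these 5 genes the times were separate, as in 67.2% of all tested genes. Scaled over all 30 libraries with no test, TXNIP had 31.7 and 37.8 CPM at 24 h and 4.75 and 4.64 CPM at 6 h. Untreated cells at 6 h, of another series number, had 31.2 and 26.2 CPM of TXNIP on that scale. For BCL6 the untreated level was 1.62 and 1.67 CPM, against 16.2 and 18.7 CPM with BRD alone at 24 h. The mRNAs of FOXO1 and FOXO3 themselves, chosen after their values were seen, had log2 changes of -0.04 and -0.17 and did not pass. Of the members, 10 rose without 6 h replicate 1 and 9 without 6 h replicate 2.

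Promoters of 2 genes from this list, most of which rose, and of 1 gene of the actin list below, which split, are shown because the printed windows hold the searched letters. Each is 300 bases of RefSeq sequence (GRCh38.p14), from 250 before to 50 after the gene's start, 5′ to 3′ on the gene's strand. Capitals mark the forkhead motif GTAAACA in TXNIP (chr1:145996530-145996829, minus strand) and YPEL3 (chr16:30096164-30096463, minus strand). In ACTG2 (chr2:73892758-73893057, plus strand) capitals mark 2 matches of the CArG box, the site bound by serum response factor.
TXNIP: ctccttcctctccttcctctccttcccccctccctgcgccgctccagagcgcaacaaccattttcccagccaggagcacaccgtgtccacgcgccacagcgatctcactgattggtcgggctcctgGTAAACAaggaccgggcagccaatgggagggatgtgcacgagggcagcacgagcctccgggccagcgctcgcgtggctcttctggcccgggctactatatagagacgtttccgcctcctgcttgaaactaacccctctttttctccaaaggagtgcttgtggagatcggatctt
YPEL3: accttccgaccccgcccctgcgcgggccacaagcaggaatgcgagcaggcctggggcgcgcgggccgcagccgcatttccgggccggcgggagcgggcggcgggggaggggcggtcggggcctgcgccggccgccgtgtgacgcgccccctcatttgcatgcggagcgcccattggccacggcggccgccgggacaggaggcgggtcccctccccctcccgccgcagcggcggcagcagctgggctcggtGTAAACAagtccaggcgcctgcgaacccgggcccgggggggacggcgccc
ACTG2: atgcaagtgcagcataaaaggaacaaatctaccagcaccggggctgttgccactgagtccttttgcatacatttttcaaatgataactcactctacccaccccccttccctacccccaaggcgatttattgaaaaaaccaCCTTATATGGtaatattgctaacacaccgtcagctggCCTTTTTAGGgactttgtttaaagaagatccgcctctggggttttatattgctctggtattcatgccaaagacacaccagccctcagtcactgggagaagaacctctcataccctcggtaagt
The motif begins at position -124 from the start in TXNIP and at position 1 in YPEL3, and both strands were searched. GTAAACA occurred in 3 of the 16 list members with a promoter, in 2 of the 10 of these that rose, and in 3.42% of 35116 promoters. YPEL3, a member of the yippee-like family chosen after its values were seen, had a log2 change of 1.42 with an adjusted p of 0.00407. The CArG box occurred in 2 of 16 actin and YAP list members with a promoter, in 1 of the 7 of these that changed, and in 1.29% of promoters. The sterol response letters TCACNCCAC were found in 1 of the 17 cholesterol list members with a promoter and in 0 of the 9 of these that fell. They were in 0 of 11 fatty acid list members with a promoter, and in 1.13% of promoters. No match says only that these letters are not in the window.

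Targets of p53, the factor activated by DNA damage and by other stresses, also mostly rose. Of 21 tested members 15 rose, none fell and 6 did not pass, with a median log2 change of 0.87. The shares over all genes were 13.5% higher and 14.5% lower. Their summed level was 1524 and 1407 CPM at 24 h, against 875 and 931 CPM at 6 h. CDKN1A, the cyclin-dependent kinase inhibitor p21, had 5.81 and 6.67 CPM at 24 h and 0.690 and 0.424 CPM at 6 h (log2 change 3.47 ± 0.35, adjusted p = 0.000501). BTG2, an antiproliferative gene, had 10.5 and 8.92 CPM against 0.862 and 0.955 CPM (log2 change 3.39 ± 0.28, adjusted p = 0.00026). The times were far apart for both. PHLDA3, an inhibitor of AKT, had 13.2 and 13.1 CPM at 24 h and 2.24 and 2.65 CPM at 6 h (log2 change 2.43 ± 0.21, adjusted p = 0.000282). Scaled over all 30 libraries with no test, PHLDA3 had 13.9 and 14.3 CPM at 24 h. Untreated cells at 6 h, of another series number, had 17.3 and 18.2 CPM of PHLDA3. For DDB2, another p53 target, the 24 h level lay above the untreated one, at 54.8 and 57.2 CPM against 27.1 and 24.4 CPM. RRM2B, the ribonucleotide reductase subunit that p53 induces, had 419 and 341 CPM against 164 and 187 CPM (log2 change 1.12 ± 0.14, adjusted p = 0.000993). MDM2, the feedback inhibitor of p53, was chosen after its value was seen and did not pass, with a log2 change of 0.26. The list shares SESN1 with the FOXO list. With either 6 h library left out 9 members rose.

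**Figure D3:**
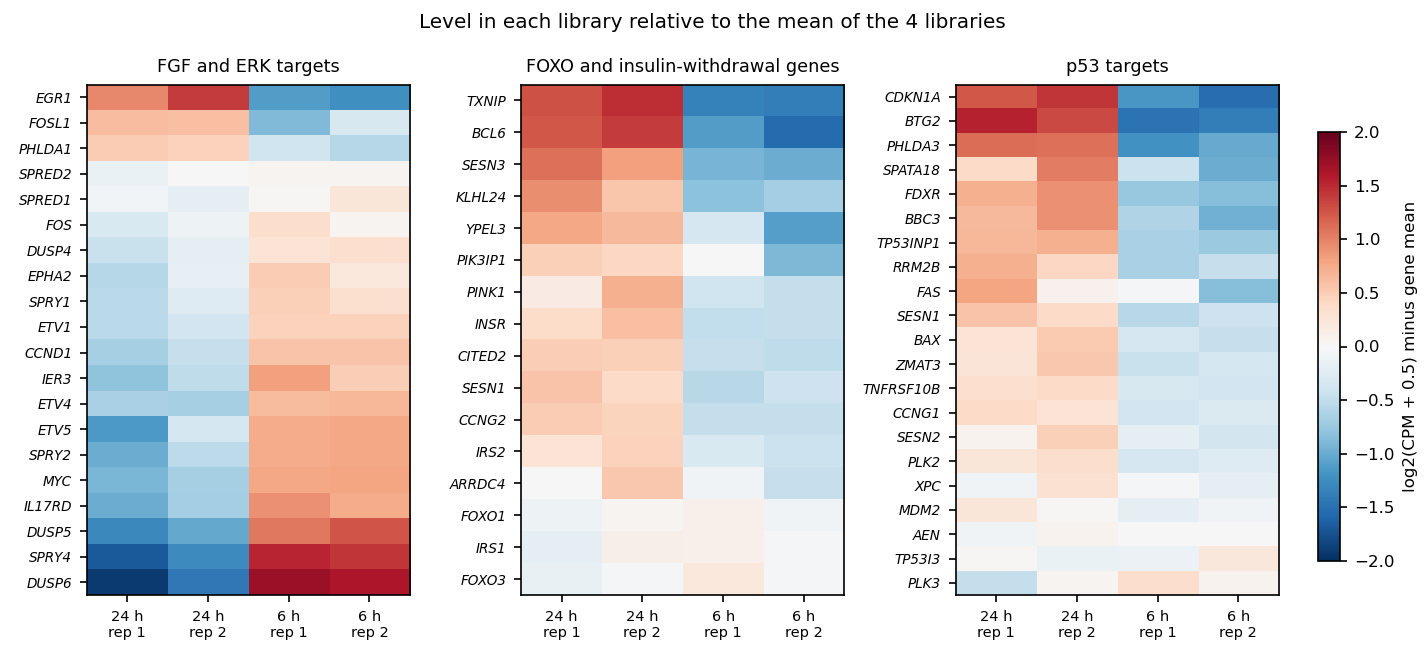
Level of each tested member of 3 lists in each of the 4 libraries, as log2(CPM + 0.5) minus the gene's mean over the libraries, with red above and blue below the mean and 24 h columns left of 6 h columns. The replicates of a time share their colours for most genes of the 3 lists. In the FGF and ERK list (left) 14 of 20 fell, and in the FOXO and p53 lists 11 of 16 and 15 of 21 rose. Over all tested genes 14.5% fell and 13.5% rose.

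Many DNA replication and S-phase genes fell. Of 24 tested S-phase genes 14 fell, 1 rose and 9 did not pass (median log2 change -0.43). RRM2, the S-phase subunit of ribonucleotide reductase, had 119 and 106 CPM at 24 h, against 287 and 279 CPM at 6 h (log2 change -1.33 ± 0.11, adjusted p = 0.00026). MCM5, part of the replicative helicase, had 88.1 and 79.5 CPM at 24 h and 151 and 146 CPM at 6 h (log2 change -0.83 ± 0.11, adjusted p = 0.00118). CDC6, which loads that helicase, fell by 0.79 ± 0.10. These genes separated the times, as did 67.2% of all tested genes. The 1 that rose, chosen after its value was seen, was CDT1, a licensing factor degraded in S phase, by 0.45 ± 0.12. Without 6 h replicate 1, 5 S-phase genes fell, and without 6 h replicate 2, 4 fell. Of 24 tested G2 to M genes 5 rose and none fell (median log2 change 0.13), against 13.5% that rose and 14.5% that fell over all genes. The smallest p was that of BUB1, a spindle checkpoint kinase, with 351 and 326 CPM at 24 h and 210 and 208 CPM at 6 h. Its log2 change of 0.69 ± 0.11 had an adjusted p of 0.00266, which was 0.0735 and 0.0753 without 6 h replicates 1 and 2. No G2 to M gene passed with either 6 h library left out.

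Most lipid synthesis genes were lower at 24 h. Of 24 tested cholesterol genes 14 fell and none rose, with a median log2 change of -0.64. Of 12 fatty acid genes 8 fell and none rose, with a median of -0.59. Over all tested genes 14.5% fell and 13.5% rose. SQLE, an early oxygenase of the sterol branch, had 74.0 and 75.9 CPM at 24 h, against 160 and 145 CPM at 6 h (log2 change -1.02 ± 0.11, adjusted p = 0.000536). INSIG1, a sterol sensor and target of SREBP factors, had 24.5 and 25.0 CPM at 24 h and 50.6 and 52.1 CPM at 6 h (log2 change -1.05 ± 0.11, adjusted p = 0.000615). SREBF1, which encodes the SREBP factor of fatty acid synthesis, had 19.6 and 19.4 CPM against 45.3 and 40.2 CPM (log2 change -1.13 ± 0.12, adjusted p = 0.000622). The 24 h libraries lay below the 6 h libraries in all 3. Without 6 h replicates 1 and 2, 9 and 10 cholesterol genes and 2 and 3 fatty acid genes fell. The summed cholesterol level was 2247 and 1873 CPM at 24 h, against 3036 and 3183 CPM at 6 h.

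In glycolysis and the response to low oxygen 4 of 24 tested genes rose, 5 fell and 15 did not pass (median log2 change 0.01). These shares lie near the 13.5% that rose and 14.5% that fell over all genes, and are no result about the list. The glucose transporters were among the genes that fell. SLC2A1, the transporter GLUT1, had 47.2 and 44.2 CPM at 24 h, against 166 and 163 CPM at 6 h (log2 change -1.85 ± 0.10, adjusted p = 4.82e-05). SLC2A3, the transporter GLUT3, had 357 and 334 CPM at 24 h and 671 and 668 CPM at 6 h (log2 change -0.95 ± 0.11, adjusted p = 0.000927). Both transporters separated the times with narrow spread, where 67.2% of all tested genes separated them. EGLN3, an oxygen-sensing hydroxylase, had 47.3 and 43.2 CPM against 20.9 and 23.4 CPM (log2 change 1.03 ± 0.13, adjusted p = 0.00107). BNIP3, a mitochondrial autophagy receptor induced by low oxygen, had 206 and 150 CPM against 85.0 and 74.6 CPM (log2 change 1.15 ± 0.16, adjusted p = 0.00166). Of 21 tested unfolded protein and integrated stress genes 5 rose and 2 fell, against 13.5% and 14.5% over all genes. Those that fell were SLC7A11, the cystine transporter, by 1.07 ± 0.11, and HSPA5, the chaperone BiP, by 0.83 ± 0.12.

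Targets of YAP and of actin with serum response factor split. Of 18 tested, 5 rose and 5 fell, against 13.5% and 14.5% over all genes. CNN1, an actin-binding protein of smooth muscle, had 10.2 and 10.4 CPM at 24 h, against 39.7 and 43.1 CPM at 6 h (log2 change -2.0 ± 0.13, adjusted p = 8.28e-05). VCL, the focal adhesion protein vinculin, had 398 and 476 CPM at 24 h and 1392 and 1330 CPM at 6 h (log2 change -1.64 ± 0.13, adjusted p = 0.000256). ACTG2, an enteric smooth muscle actin, had 31.8 and 31.0 CPM against 62.6 and 61.6 CPM (log2 change -0.99 ± 0.11, adjusted p = 0.000645). These 3 genes lay lower in both 24 h libraries. CCN2, the matricellular YAP target CTGF, had 100 and 109 CPM at 24 h and 51.0 and 46.4 CPM at 6 h (log2 change 1.10 ± 0.11, adjusted p = 0.000501). AJUBA, an adaptor of Hippo signalling, rose by 0.92 ± 0.12.

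The remaining lists had 1 to 3 members that passed in either direction, to be read against the 13.5% that rose and 14.5% that fell over all genes. Of 10 tested retinoic acid genes 3 rose and 1 fell. DHRS3, which reduces retinal, had 18.1 and 14.1 CPM at 24 h, against 4.05 and 3.50 CPM at 6 h (log2 change 2.05 ± 0.21, adjusted p = 0.000552), and CRABP2, a retinoic acid carrier, had 71.3 and 66.2 CPM against 28.0 and 21.6 CPM (log2 change 1.46 ± 0.14). Of 13 tested Notch genes 3 rose and 1 fell, and the ligand DLL1 had 5.08 and 4.98 CPM at 24 h against 0.603 and 0.318 CPM at 6 h (log2 change 3.39 ± 0.38, adjusted p = 0.000723). In a fit over all 30 libraries the adjusted p was 0.154 for DLL1 and 0.0609 for DHRS3. Of 7 tested DNA methylation genes 3 fell and 1 rose. DNMT3A had 201 and 276 CPM at 24 h and 469 and 441 CPM at 6 h (log2 change -0.93 ± 0.15, adjusted p = 0.00362), and UHRF1, which recruits the maintenance methyltransferase, fell by 1.04 ± 0.13. The matrix and epithelial-mesenchymal list had 18 tested genes, of which 1 rose and 3 fell. Of 20 tested lysosome and autophagy genes 3 rose and 1 fell, and none passed with either 6 h library left out.

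Of the 13 genes encoded in mitochondrial DNA none passed, but the 24 h libraries stood apart from each other. These genes took 1.54% of counts in 24 h replicate 1 and 2.50% in 24 h replicate 2, against 2.36% and 2.04% at 6 h. Without 24 h replicate 1, 7 of them were higher at 24 h, and without 24 h replicate 2, 12 of them were lower. The direction thus turned on 1 library. Of 9 tested MTRNR2L copies 1 passed, MTRNR2L3, with a log2 change of 0.40 and an adjusted p of 0.191 and 0.305 without 6 h replicates 1 and 2. These copies are nearly identical and their counts are uncertain.

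Among genes with a mean of 10 CPM or more at the higher time, the largest rise was that of NPTX1, a secreted pentraxin of synapses on chromosome 17 (80467148 to 80477843). NPTX1 had 87.4 and 69.6 CPM at 24 h, against 2.93 and 2.12 CPM at 6 h, a log2 change of 4.92 ± 0.20 (adjusted p = 1.78e-05). STC1, a secreted glycoprotein, had 296 and 321 CPM at 24 h and 65 and 56.2 CPM at 6 h (log2 change 2.35 ± 0.12, adjusted p = 4.82e-05). Both genes were several-fold higher in each 24 h library. DDB2, a DNA damage-binding protein and p53 target, had 52.0 and 52.7 CPM at 24 h against 11.7 and 10.2 CPM at 6 h (log2 change 2.25 ± 0.13). IDO1, which degrades tryptophan, had 61.3 and 45.5 CPM against 8.88 and 11.5 CPM (log2 change 2.38 ± 0.19). INPP5D, the lipid phosphatase SHIP1, TJP3, a tight junction protein, ZBTB20, a zinc finger repressor, and MAP1LC3C, an autophagy protein, rose by 2.45 to 2.68 on the log2 scale. TXNIP, BCL6, EGR1 and PHLDA3 completed the 12 largest rises above this level. CDKN1A, BTG2 and DLL1, below it, rose by 3.39 to 3.47. On the scale over all 30 libraries, TXNIP at 24 h lay near the untreated cells of 6 h. EGR1 and PHLDA3 at 24 h lay below those cells, and BCL6 and DDB2 above them.

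With the same limit of 10 CPM, the largest fall was that of DACT1, a Dishevelled-binding modulator of Wnt signalling. DACT1 had 1.60 and 1.24 CPM at 24 h, against 20.4 and 16.5 CPM at 6 h, a log2 change of -3.82 ± 0.23 (adjusted p = 5.73e-05). CSRP1, a LIM protein of the actin cytoskeleton, had 4.94 and 4.0 CPM at 24 h and 53 and 58.2 CPM at 6 h (log2 change -3.71 ± 0.15, adjusted p = 1.78e-05). In both genes the 24 h libraries lay far below the 6 h pair. SHISA2, of a family known in frogs to retain FGF and Wnt receptors inside the cell, had 11 and 11.5 CPM at 24 h against 61.0 and 54.4 CPM at 6 h (log2 change -2.35 ± 0.13). HAS3, a hyaluronan synthase, had 7.69 and 8.21 CPM against 44.1 and 39.2 CPM (log2 change -2.37 ± 0.14). GNA14, a G protein subunit, ANXA1, an annexin, PDE4B, a cyclic AMP phosphodiesterase, and LCP1, an actin-bundling plastin, fell by 2.40 to 2.72. MT1X, a metallothionein, fell by 2.76 ± 0.23, and its counts are uncertain because its paralogs are near-identical. DUSP6, SPRY4 and DUSP5 completed the 12 largest falls above this level. CER1, LEFTY1, LEFTY2 and NODAL, below it, fell by 3.12 to 4.58.

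**Figure D4:**
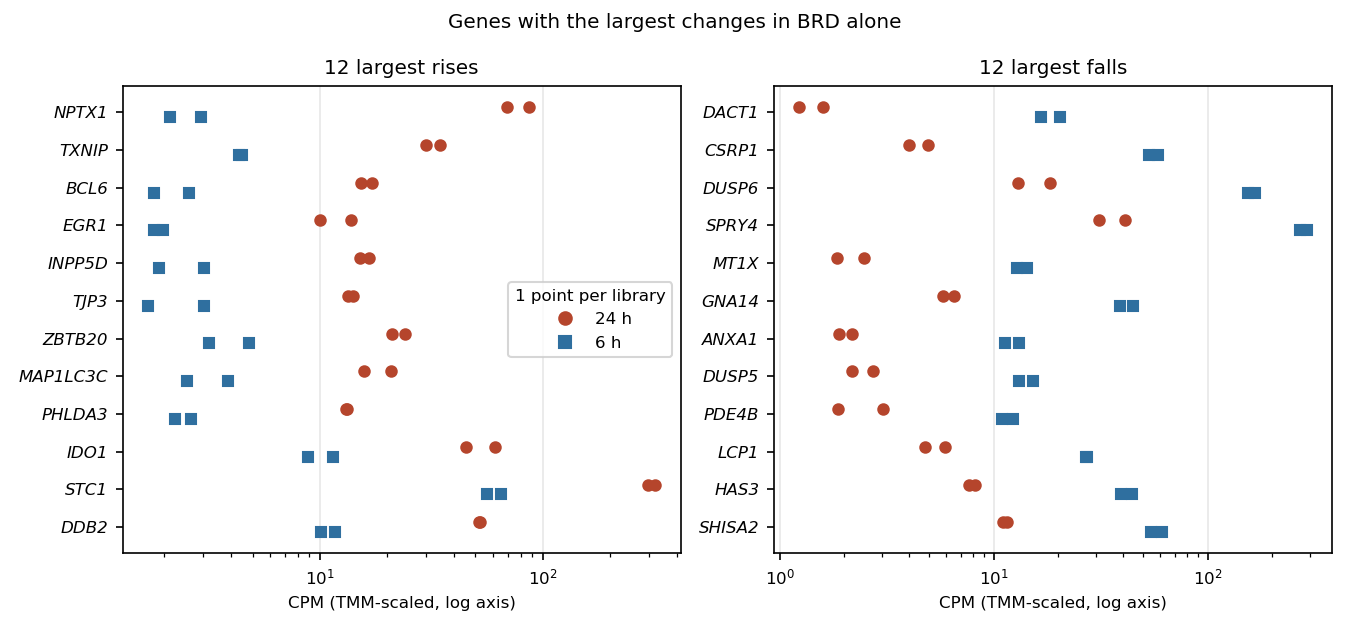
Levels in each library of the 12 genes with the largest rises (left) and the 12 with the largest falls (right) with a mean of 10 CPM or more at the higher time, on a log axis of TMM-scaled CPM. Red circles are the 24 h libraries and blue squares the 6 h libraries. In all 24 genes the times do not overlap, which the naming rule required.

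A further comparison asked whether the change over time with BRD alone differed from that with BRD and CHIR together, whose cells share the line and base medium. BRD with CHIR carries the series number 33 at 6 h and 38 at 24 h, so its change over time and the library series cannot be told apart, and each difference below carries that limit. In the interaction test of 8 libraries, 4177 of 14837 genes (28.2%) passed, 1959 (13.2%) with a higher and 2218 (14.9%) with a lower log2 change with BRD alone. SOX2 had 375 and 437 CPM at 24 h and 250 and 251 CPM at 6 h with BRD alone. With BRD and CHIR it had 28.6 and 26.5 CPM at 24 h and 176 and 175 CPM at 6 h. The log2 change with BRD alone exceeded that with both by 3.37 ± 0.15 (SE, adjusted p = 2.58e-07). FGF2 followed the same pattern, with a difference of 2.13 ± 0.14, and OTX2 had one of 1.39 ± 0.26. NPTX1 had 0.950 and 0.0700 CPM at 24 h and 6.85 and 5.97 CPM at 6 h with both compounds, and the difference was 8.30 ± 0.59.

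Genes of the streak and of Nodal signalling differed the other way. MIXL1 had 1.48 and 1.03 CPM at 24 h with BRD alone against 556 and 592 CPM with BRD and CHIR, and 0.806 and 0.674 CPM at 6 h against 4.30 and 5.48 CPM. The difference in log2 change was -6.32 ± 0.55 (adjusted p = 2.35e-05). It was -6.80 ± 0.58 for LEFTY1, -4.33 ± 0.31 for NODAL and -4.67 ± 1.15 for EOMES, which rests on 4 and 5 counts over the 24 h and 6 h libraries of BRD alone. TBXT had 1 count at each time over the pair with BRD alone, against 5551 and 114 counts at 24 h and 6 h with BRD and CHIR. It was in the fit, but its difference is not given because of these low counts. For NANOG the difference in log2 change was -1.37 ± 0.15. For POU5F1 the difference was 0.02 (95% interval -0.28 to 0.32, adjusted p = 0.934), and for DNMT3B it was 0.07 (-0.24 to 0.38, adjusted p = 0.747).

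Counts in this test follow for a part of the lists. They are to be read against the shares of 13.2% with a higher and 14.9% with a lower change over all genes. Of 20 Nodal and Activin targets 5 had a higher and 12 a lower change with BRD alone than with both compounds. For 16 Wnt targets these counts were 0 and 3, and for 10 BMP targets 2 and 0. For 26 primed pluripotency genes they were 14 and 1. For 9 MTRNR2L copies, whose counts are uncertain, they were 8 and 0. The test compares log2 changes over time, not levels. Of 20 FGF and ERK targets 12 had a lower and 4 a higher change with BRD alone than with both compounds, with differences of -2.87 ± 0.23 for DUSP6, -2.30 ± 0.19 for SPRY4 and 4.44 ± 0.30 for EGR1. The level of EGR1 was lower with BRD alone at both times, at 10.2 and 14.5 CPM at 24 h against 21.4 and 24.9 CPM with both compounds, and at 2.06 and 1.91 CPM at 6 h against 76.7 and 79.1 CPM. The change was lower for 15 and higher for 1 of 24 cholesterol genes, and lower for 10 and higher for none of 12 fatty acid genes. For p53 targets it was higher in 10 of 22 and lower in none, with a difference of 2.71 ± 0.31 for PHLDA3. PHLDA3 itself had 13.5 and 13.9 CPM at 24 h with BRD alone against 24.9 and 21.9 CPM with both, and 2.33 and 2.81 CPM at 6 h against 32.3 and 24.8 CPM. For FOXO genes the change was higher in 7 of 16 and lower in 2, with a difference of 2.95 ± 0.30 for TXNIP. At 24 h TXNIP had 30.7 and 36.7 CPM with BRD alone and 36.3 and 29.9 CPM with both, and at 6 h it had 4.66 and 4.6 CPM with BRD alone against 40.7 and 29.4 CPM with both. In PHLDA3 and TXNIP the levels at 6 h were far lower with BRD alone, and at 24 h TXNIP overlapped between the treatments. For BCL6 the difference was 1.31 with a 95% interval of -0.14 to 2.76 (adjusted p = 0.166). Of 15 streak genes 9 had a lower change and none a higher one. These 15 include TBXT, GSC and SP5, with 1, 8 and 2 counts over the 24 h pair of BRD alone. Over the 6 h pair they had 1, 1 and 0 counts, so their changes with BRD alone were hardly measured.

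Side by side with the other unsorted groups, scaled over all 30 libraries and with no test, SOX2 at 24 h with BRD alone was the highest of the groups plotted. It had 387 and 450 CPM there and 255 and 253 CPM at 6 h with BRD alone, while CHIR alone gave 29.8 and 35.3 CPM at 24 h and 216 and 207 CPM at 6 h, and untreated cells 257 and 308 CPM at 6 h. POU5F1 had 539 and 513 CPM at 24 h and 459 and 506 CPM at 6 h with BRD alone. These values lie below the 836 and 828 CPM of untreated cells at 6 h, which carry a different series number. NODAL had 0.919 and 0.411 CPM at 24 h and 4.2 and 4.64 CPM at 6 h with BRD alone, and 16.6 and 17.2 CPM in untreated cells at 6 h. NANOG had 81.0 and 86.8 CPM at 24 h and 203 and 184 CPM at 6 h with BRD alone. Its level in untreated cells at 6 h was 99.8 and 113 CPM. DNMT3B had 459 and 516 CPM at 24 h and 887 and 837 CPM at 6 h with BRD alone. In untreated cells at 6 h it had 1732 and 1660 CPM.

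**Figure D5:**
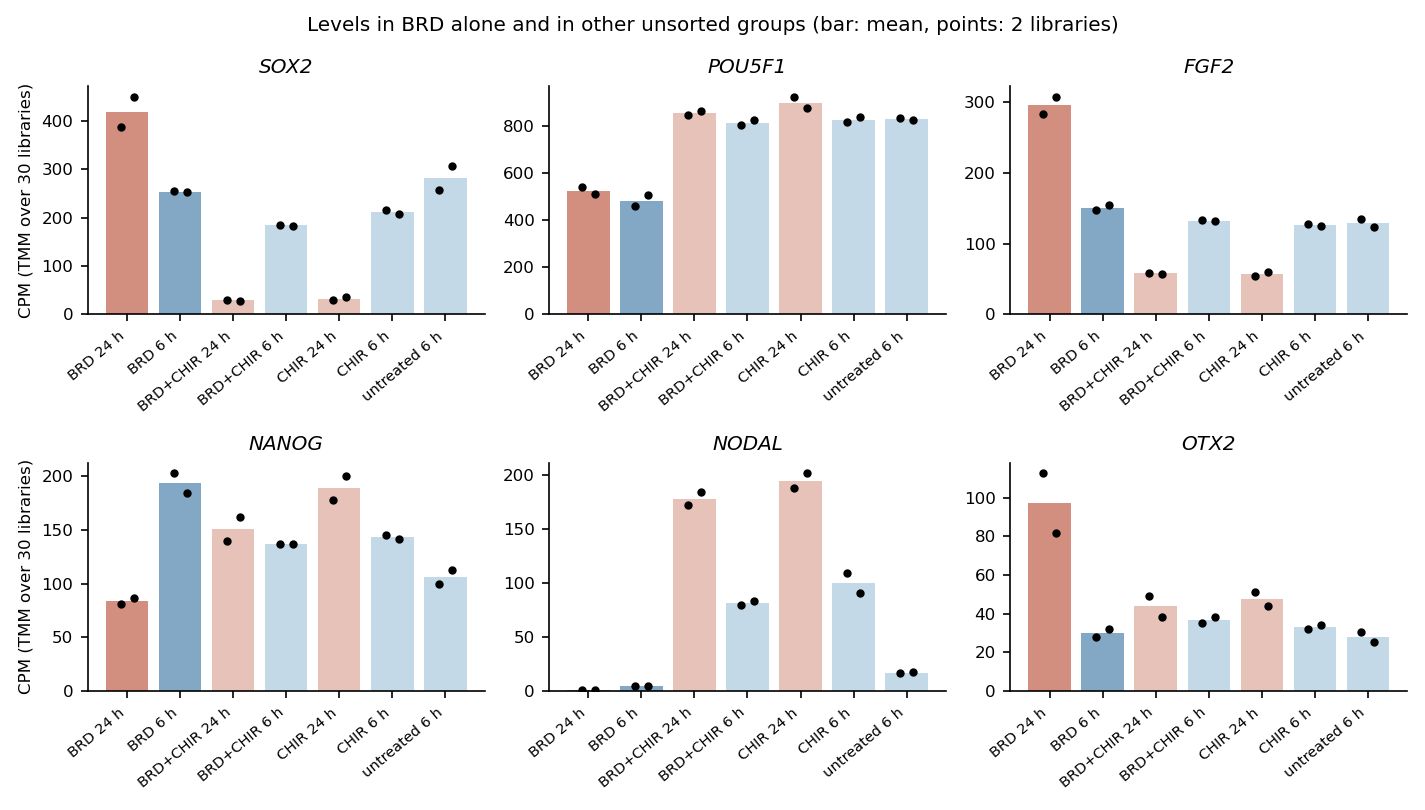
Levels of 6 genes in cells kept with BRD alone and in other unsorted groups of the series, in CPM scaled over all 30 bulk libraries. Bars are means and points the 2 libraries of a group, with each 24 h group left of its 6 h group, red for 24 h and blue for 6 h. Among the groups plotted, SOX2, FGF2 and OTX2 are highest with BRD alone at 24 h, and NODAL is lowest there.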

How the data were processed

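The authors deposited expected counts per gene (fractional estimates) for 30 bulk libraries in 1 table with 0 unassigned columns. The submitters' processing notes list Salmon 1.4.0, limma 3.48.1, edgeR 3.34.0 and GRCh38 without saying what each did, and the labels' protocols give a stranded total RNA kit read single-end. The strand setting of the counting is not given in the sources used here, so overlapping and antisense genes cannot be told apart. Expected counts were rounded. The test was the two-sided quasi-likelihood F-test of edgeR 4.0.16 under R 4.3.3, after TMM scaling and filterByExpr, with Benjamini-Hochberg adjustment over all genes tested and a threshold of 0.05. The time comparison was fitted on its 4 libraries with 2 residual degrees of freedom, and the interaction on 8 libraries. The standard error is the log2 change over the root of F. On simulated data with known changes both fits made more false calls than the threshold allows, and the interaction fit missed many of the smaller changes.

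The members and the 30 gene lists were chosen with earlier results of these data known. Named are the 12 largest rises and 12 largest falls that passed with a mean of 10 CPM or more at the higher time and no overlap, 20 stage genes, and up to 5 called members with the smallest p from each list; others are marked as chosen after their values were seen. Gene positions are from GENCODE 29, promoters from RefSeq. The pairs at 24 h and 6 h differed by more than counting noise (chi-square per degree of freedom 17.8 and 4.95). Floors of 3 counts cover counting error only, since PCR copies are not independent molecules. Alternatives were DESeq2 1.42.0 and its size factors, limma-voom (limma 3.58.1), no filter, leaving out each library, a replicate block, thinning the deep library, removing mitochondrial copies, and fits over 12 and 30 libraries. Single-cell files were not used. 1 gene that the naming rule selects is not reported here.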

Additional observations from a re-analysis of the deposited data

Results flagged for a closer look

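For 8 stage genes the log2 change over time with BRD alone differed from that with BRD and CHIR in the edgeR interaction test. The difference, BRD alone minus both compounds, was 3.37 for SOX2, 2.13 for FGF2 and 1.39 for OTX2. It was -1.37 for NANOG, -4.33 for NODAL, -4.67 for EOMES, -6.32 for MIXL1 and -6.80 for LEFTY1. The libraries with both compounds carry a different series number at each time, and this and CHIR cannot be told apart.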

How the results depend on the processing

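The time comparison called 3836 genes, and from 2797 (DESeq2) to 4173 (limma-voom) with another tool, other size factors, no filter, thinning of the deep 24 h library (3597) or removal of mitochondrial copies. Sharing the spread with sorted cells gave 2226 calls over 12 libraries and 1881 over 30, of which 668 were higher and 1213 lower at 24 h, against 1855 and 1981. Leaving out 1 library gave 1168 to 5251 calls, where the lone library of a time is assumed to vary like the others. In every one of these settings 0 shared calls had the opposite sign, which was hardly possible for calls made on the same libraries. List members called numbered 179, and 96 to 218 with 1 library left out. The interaction called 4177 genes, and 2478 to 5611 with 1 library left out.

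Equal replicate numbers did not pair the libraries (correlation of deviations -0.179). With a replicate block the time comparison called 3621 genes and the interaction 3822. A crossed pairing, chosen after seeing the data, called 5663. With the replicate block, KRT8, SP8, MTRNR2L3 and 4 of the 5 G2 to M genes that had passed did not pass.

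Among named genes 0 changed direction. Of those that passed, 12 did not pass with DESeq2, 12 in the fit over 12 libraries, 25 in that over 30, and 37 and 35 without 6 h replicates 1 and 2. The interaction difference of POU5F1 ranged from -0.0524 (without BRD alone 6 h replicate 1) to 0.108 with 1 library left out, and was -0.00267 without BRD alone 24 h replicate 1. That of DNMT3B ranged from -0.0155 (without BRD alone 24 h replicate 2) to 0.165, and neither passed in these settings. The cause was not tested. Depth limits genes near 0 in the 24 h library with 6.75 M counts.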
